A study of Homo sapiens with 183 samples.

Results

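The 10 genes described here regulate the epithelial state: the ETS transcription factors ELF3, EHF and ELF1, the grainyhead-like transcription factors GRHL1, GRHL2 and GRHL3, the zinc finger transcription factors OVOL1 and OVOL2, and the splicing regulators ESRP1 and ESRP2. They were taken by name, with no threshold on a measured value, and they are 10 of the 19875 genes listed in the 8 tables of TPM values used here (TPM is a transcript level scaled for transcript length and for the library total). The level of each gene was taken in every line, and its change was taken for each knockout against the control guide sgRosa, or for the compound CB-6644 against its vehicle DMSO, within a line and experiment.

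Poly-A RNA was sequenced from 183 libraries of 9 human cancer cell lines. There were 5 lines of pancreatic ductal adenocarcinoma (PDAC), of which AsPC-1 and SUIT-2 served as classical models, T3M-4 and BxPC-3 as basal-like models, and CFPAC-1 as a further line. The other 4 lines were T84 (colorectal cancer), A375 (melanoma), H1048 (small cell lung cancer of the tuft cell-like kind) and RH30 (alveolar rhabdomyosarcoma). The study asked how the transcription factor KLF5 and the paired ATPases RUVBL1 and RUVBL2, which work together in several chromatin and assembly complexes, maintain gene expression in these lines.

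PDAC lines that carried Cas9 were infected with guides against KLF5, RUVBL1, RUVBL2, CDK1 or RPA3 (the last pair being genes that dividing cells need), and AsPC-1 also with guides against the chromatin remodeller CHD4 or the serpin SERPINB5. Their RNA was taken on day 5. KLF5, RUVBL1, RUVBL2, SERPINB5 and the control locus were each cut with more than 1 guide, and the titles do not tell which guide a library carried. AsPC-1 was studied in 4 knockout experiments, named here experiment 1 (KLF5), experiment 2 (RUVBL1 and SERPINB5), experiment 3 (KLF5, RUVBL1, RUVBL2, CDK1 and RPA3) and the CHD4 experiment. BxPC-3 and T3M-4 were each studied in experiment 1 (KLF5 and RPA3) and experiment 2 (KLF5, RUVBL1, RUVBL2, CDK1 and RPA3), CFPAC-1 in 1 experiment with those 5 knockouts, and SUIT-2 in 1 with KLF5 alone. CB-6644, an allosteric inhibitor of the RUVBL1 and RUVBL2 ATPase, or DMSO was given for 24 h to AsPC-1 and T3M-4 cells carrying an empty vector (EV), a RUVBL1 A62T cDNA or a RUVBL2 dF109 cDNA, and to parental T84, A375, H1048 and RH30. Knockout and control arms held 2 to 6 libraries and compound arms 3 or 4, whereas DMSO was given by 1 library per construct in AsPC-1 and T3M-4, so the 3 DMSO libraries of a line together were the control there. The study calls knockout libraries biological replicates without saying what was separate, the titles add nothing, and p-values therefore measure the spread between these libraries, which may be technical.

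ELF3 and EHF are ETS factors largely restricted to epithelia, whereas ELF1 is expressed in most tissues. Grainyhead-like factors bind and activate genes of epithelial junctions and barrier, OVOL1 and OVOL2 are repressors that hold down drivers of the mesenchymal state such as ZEB1, and ESRP1 and ESRP2 direct the epithelial splicing of transcripts such as FGFR2 and ENAH. The families are often described as a connected network that is switched off when carcinoma cells take on mesenchymal features. In bulk RNA, fewer cells of a type and less RNA per cell cannot be told apart.

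Reference sequence is shown for ELF3 and EHF, chosen by the change in log2(TPM + 1) in AsPC-1. ELF3 had the largest such fall after KLF5 knockout in experiment 3 and EHF the largest after RUVBL1 knockout. RefSeq start sites (GRCh38.p14) were found for 5 of the 10 genes, EHF, ELF1, ELF3, GRHL1 and GRHL3, with 9 start sites in all, and the 250 bases before a start are printed 5′ to 3′. Capitals mark matches, on either strand, to any of 5 motifs. The motifs were the GC box with the letters GGGCGG, the CACCC box with the letters CCACCC, the core of ETS factor sites with the letters CCGGAA, the grainyhead motif with the letters AACCNGTT, which on the other strand reads AACNGGTT, and finally the E-box with the letters CACCTG.
ELF3, chr1:202010337-202010586, plus strand: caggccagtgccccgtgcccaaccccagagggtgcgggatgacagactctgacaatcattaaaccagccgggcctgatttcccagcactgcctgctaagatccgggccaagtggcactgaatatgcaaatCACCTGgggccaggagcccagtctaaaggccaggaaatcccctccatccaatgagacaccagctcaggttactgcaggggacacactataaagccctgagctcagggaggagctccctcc
EHF upstream start, chr11:34624007-34624256, plus strand: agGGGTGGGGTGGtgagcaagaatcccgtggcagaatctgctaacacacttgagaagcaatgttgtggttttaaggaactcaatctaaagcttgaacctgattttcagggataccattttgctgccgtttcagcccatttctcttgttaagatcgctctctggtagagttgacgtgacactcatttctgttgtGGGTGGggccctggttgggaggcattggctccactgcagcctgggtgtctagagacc
EHF downstream start, chr11:34632316-34632565, plus strand: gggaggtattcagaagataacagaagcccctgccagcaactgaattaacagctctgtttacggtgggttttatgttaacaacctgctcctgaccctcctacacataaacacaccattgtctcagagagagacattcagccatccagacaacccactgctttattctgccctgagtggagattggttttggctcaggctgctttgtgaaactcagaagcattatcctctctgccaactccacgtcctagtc
The ELF3 window held 1 E-box match, the upstream EHF window held 3 CACCC matches of which 2 overlap at its start, and the downstream EHF window held no match to any of the 5 motifs. Over all 35116 windows of the same length, 17.5% held the E-box letters, 31.3% the CACCC letters, 42.6% the GC box letters, 14.5% the ETS core and 1.5% the grainyhead letters. A match is a description of letters and not a bound site.

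The lines were checked against their defining markers before the results. KRT8 and EPCAM were high in the 5 PDAC lines and T84, HNF4A averaged 52.3 TPM in AsPC-1 and 17.6 TPM in SUIT-2 controls, and TP63 averaged 102 TPM in BxPC-3 and 82.3 TPM in T3M-4 controls. T84 expressed CDX1, H1048 expressed the tuft cell factor POU2F3 at 476 TPM although CHAT was at 0.229 TPM, and RH30 expressed MYOD1 at 736.5 TPM. In A375, SOX10 averaged 235 TPM but the melanosome genes MLANA (1.23 TPM) and PMEL (0.914 TPM) were near absent. RUVBL1 and RUVBL2 transcripts were at 0.271 to 0.448 times their sgRosa mean in their own knockouts, whereas KLF5 transcripts were at 0.753 to 1.70 times and CHD4 transcripts at 1.24 times, so that the RNA level does not check the KLF5 and CHD4 labels. In CFPAC-1, the libraries labelled sgCDK1 held CDK1 at 200 TPM and those labelled sgRpa3 at 86.5 TPM, against 215 TPM with sgRosa. RPA3 was at 30.3 and 31.0 TPM against 37.6 TPM. CDK1 was thus lowest under the other label and RPA3 was lower under both. These levels do not settle whether the labels are right, and the libraries are named as labelled throughout. Sequencing depth is unknown because the tables hold no counts, and between 11292 and 14024 genes reached 1 TPM in a library. The SUIT-2 sgRosa replicate 1 library and the T3M-4 experiment 1 sgKLF5 replicate 2 library stood apart from the others of their groups. ELF3 in SUIT-2 and OVOL2 in T3M-4 experiment 1 are given with and without them.

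Baseline levels set the lines apart by gene more than by family. Levels across tables are described without a test because the tables were normalized separately, and each value is the mean of a line's control groups, sgRosa or DMSO. ELF3 averaged 173 TPM in SUIT-2, 170 in AsPC-1, 138 in T84, 133 in T3M-4 and 132 in CFPAC-1, and the ranges of these 5 lines overlapped. BxPC-3 was lower, at 55.9 TPM with 6 control libraries between 43.6 and 60.9, and H1048 lower again at 18.5 TPM. EHF was highest in H1048, where the 4 DMSO libraries lay between 322.6 and 351 TPM, and the 5 PDAC lines and T84 averaged 123 to 158 TPM with ranges that overlapped. In A375 and RH30, ELF3 was between 0 and 0.135 TPM in the control libraries, and EHF averaged 0.537 and 0.0102 TPM. ELF1 ran from 13.2 TPM in H1048 to 55.3 TPM in BxPC-3 and was at 22.6 TPM in A375 and 23.3 TPM in RH30, so it alone of the 10 genes passed 5 TPM in the controls of those 2 lines.

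AsPC-1 lacked part of the set. GRHL2 was listed at 0 in 39 of its 60 libraries and did not pass 0.144 TPM in any, whereas GRHL2 averaged 27.4 TPM in SUIT-2, 31.9 in BxPC-3, 32.3 in T3M-4, 36.6 in CFPAC-1, 20.03 in T84 and 46.9 in H1048. ESRP1 averaged 2.27 TPM in AsPC-1 controls and between 51.6 and 95.7 TPM in the other 4 PDAC lines, T84 and H1048. ESRP1 in AsPC-1 also differed between experiments, described here without a test: over all libraries it ran from 1.65 to 3.39 TPM in experiment 1, 1.55 to 4.43 in experiment 2, 0 to 0.465 in experiment 3, 0.133 to 0.606 in the compound experiment and 3.69 to 10.3 in the CHD4 experiment. GRHL1 was lowest in AsPC-1 too, at 0.884 TPM, and ESRP2 was at 6.98 TPM there against 21.1 to 42.3 TPM in the other PDAC lines. The epithelial markers EPCAM and KRT8 were high in AsPC-1 all the same, at 861 TPM and 7692 TPM. CDH1 (E-cadherin) was present at 26.3 TPM but was lowest there among the PDAC lines. It averaged 73.5 TPM in SUIT-2, 93.1 in T3M-4, 110.5 in CFPAC-1 and 228.5 in BxPC-3.

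The remaining factors were unevenly spread. GRHL3 averaged highest in T84 (21.0 TPM) and T3M-4 (16.4 TPM), although the T3M-4 control mean ran from 8.88 to 25.5 TPM between experiments. It was at 8.87 TPM in H1048 and 8.70 TPM in BxPC-3, whose ranges overlapped each other and that of T3M-4, and fell to 1.11 TPM in SUIT-2. OVOL1 was highest in T3M-4 (38.5 TPM) and T84 (34.9 TPM), whose ranges overlapped, then BxPC-3 (17.7 TPM), and was between 2.34 and 5.18 TPM in AsPC-1, CFPAC-1, SUIT-2 and H1048. OVOL2 had another order, with 35.8 TPM in H1048 and 30.6 TPM in T84, 16.2 TPM in CFPAC-1, and 2.65 TPM in T3M-4, the line with the most OVOL1. The plot of control levels shows these differences library by library.

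**Figure D1:**
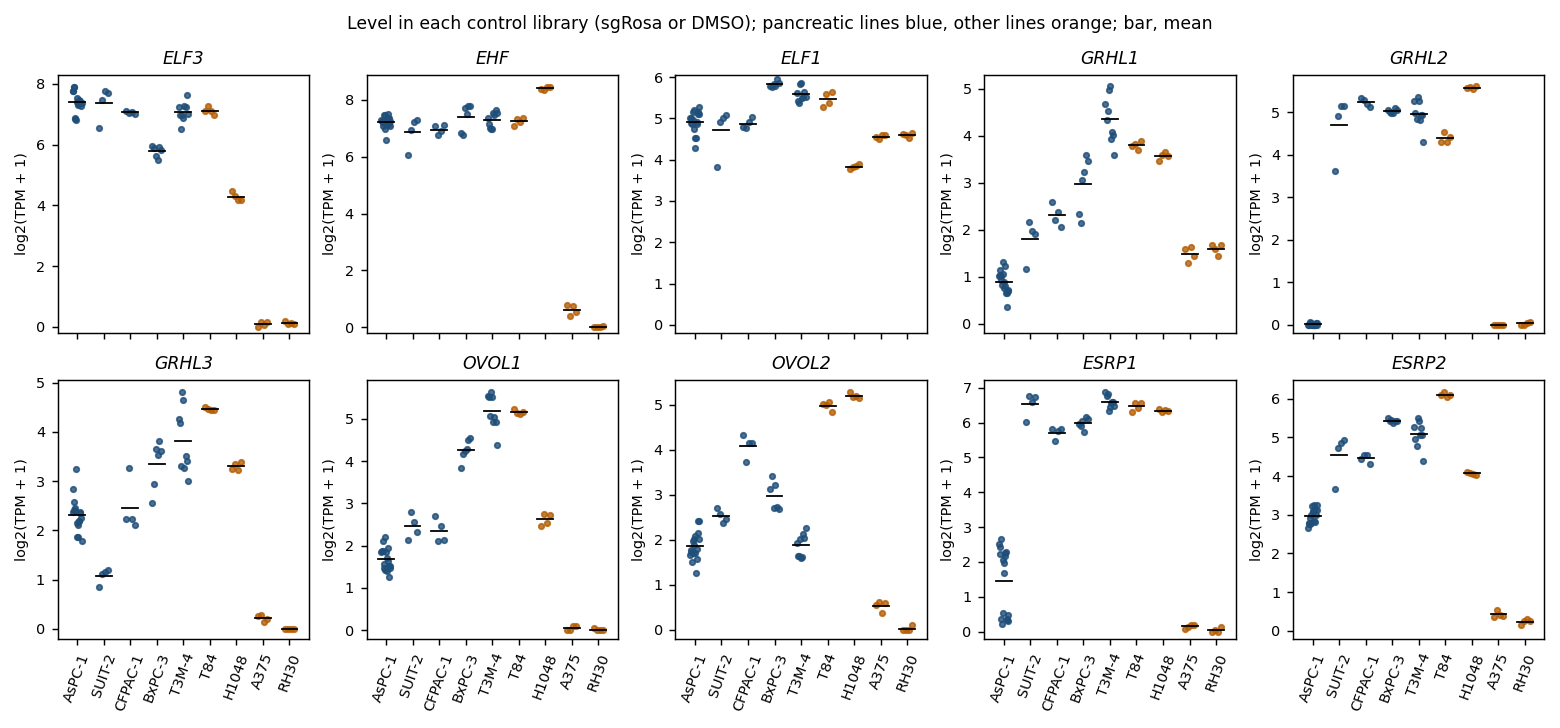
Level of the 10 genes in each control library (sgRosa or DMSO) of the 9 lines, on the log2(TPM + 1) scale, with a bar at the mean of the line, PDAC lines in blue and other lines in orange. GRHL2 sits at the floor in AsPC-1, A375 and RH30, and the other genes apart from ELF1 and GRHL1 sit near it in A375 and RH30.

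Because T84, H1048, A375 and RH30 share a table, their DMSO levels were tested against each other with limma on log2(TPM + 1). All 10 genes were higher in T84 than in A375 and than in RH30, beside 35.4% and 37.4% of all genes tested. In those comparisons 86.6% and 86.0% of all genes differed in either direction. Against H1048, 9 of 10 differed (89.5% of all genes did): EHF was lower in T84 by a log2 difference of -1.16 and GRHL2 by -1.19, OVOL2 differed by -0.22, a direction that became 0.31 under median-of-ratios scaling, the other 6 were higher in T84, and ESRP1 did not pass. Under median-of-ratios scaling ESRP1 passed too, higher in T84 by 0.65. H1048 differed from A375 in all 10 genes (88.1% of all genes) and from RH30 in all 10 (87.5%). In both, 9 were higher in H1048, beside 58% and 56.9% of all genes, and ELF1 was lower, by -0.73 and -0.77. Only 2 members, ELF1 and GRHL1, passed the filter of 1 TPM within A375 or RH30 alone. The others entered these tests through their levels in T84 and H1048. Their direction against A375 and RH30 was therefore fixed in advance, and the counts in those comparisons are no support. Where most genes of a comparison pass, a count of members adds little to the levels themselves.

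The genes whose control levels had the highest Pearson's r with those of a member over the 9 line means were named as a description. For ELF3 they were FA2H (r = 0.977), HPGD (0.974) and PLEK2 (0.973), and for EHF ARHGEF35 (0.990), MARVELD2 (0.989) and ARHGEF5 (0.986), the near-identical pair ARHGEF35 and ARHGEF5 being hard to tell apart by reads. For GRHL2 they were MAPK13 (0.991), ESRP1 (0.973) and RAB25 (0.972), and for ESRP1 RAB25 (0.987), MAPK13 (0.983) and PRRG2 (0.977). MARVELD2 is the tight junction protein tricellulin and RAB25 a GTPase of epithelial recycling. Lines near the floor weigh heavily in these r values. MAPK13, for instance, was at 1.47 TPM in AsPC-1, 1.58 in A375 and 1.07 in RH30, and between 27.2 and 54.8 TPM in the other lines. A high r thus need not mean that levels followed each other among the lines that express both genes.

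After KLF5 knockout, ELF3 and OVOL2 were the members that fell most and in more than 1 line. ELF3 passed the test in AsPC-1, in both experiments, and in CFPAC-1, and OVOL2 passed it in AsPC-1, in both experiments, and in T3M-4 experiment 2. EHF and ESRP1 fell in BxPC-3 experiment 2. These 8 calls held under every alternative setting and without any 1 library. Over the 8 line and experiment comparisons, 20 of 75 member tests passed at an adjusted p threshold of 0.05, beside 20.6% of all gene tests.

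In AsPC-1 experiment 3, ELF3 was at 48.1, 69.8, 71.2 and 63.6 TPM in the 4 sgKLF5 libraries and at 164, 172.6, 152 and 163 TPM in the 4 sgRosa libraries. Every knockout library lay under every control library and the log2 fold change was -1.37 (SE 0.09, adjusted p = 2.73e-09, limma with Benjamini-Hochberg adjustment). In experiment 1, the 6 sgKLF5 libraries ran from 93.1 to 105.5 TPM with a median of 96.0, against 185 and 170 TPM with sgRosa. The groups were again apart, and the change in experiment 1 was smaller than in experiment 3: the difference of the 2 log2 changes was 0.51 (adjusted p = 0.0129), and ELF3 was the only 1 of 9 members for which this difference passed, beside 6.54% of all genes tested.

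OVOL2, which was scarce in AsPC-1, fell in both experiments too. In experiment 1 it ran from 0.274 to 1.06 TPM with a median of 0.751 in the 6 sgKLF5 libraries, against 3.05 and 2.26 TPM with sgRosa, a log2 fold change of -1.15 (SE 0.20, adjusted p = 0.00166). In experiment 3 it was at 0.859, 1.11, 2.44 and 2.60 TPM against 4.30, 3.44, 4.37 and 3.05 TPM, a change of -0.85 (SE 0.19, adjusted p = 0.00205). Both groups of knockout libraries lay under their controls, but in experiment 3 the knockout libraries fell into a lower and a higher pair, and at these levels the pseudocount of 1 TPM makes the fold change an understatement.

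Counting all members in AsPC-1, 4 of 9 tested passed in experiment 1, where 25.9% of all genes did, and 2 of 7 in experiment 3, where 27.8% did. The further calls in experiment 1 rested on single control libraries: GRHL3 was lower by -0.64 and missed the threshold without sgRosa replicate 1 (adjusted p = 0.101), and ESRP2 was higher by 0.53 and missed it without sgRosa replicate 2 (adjusted p = 0.118). ESRP2 was at 8.88 to 12.3 TPM with sgKLF5 against 6.99 to 8.47 TPM with sgRosa in experiment 3, where all 4 knockout libraries were above the controls but the test was not passed. GRHL2 was under the filter of 1 TPM in both experiments.

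In CFPAC-1, ELF3 was at 95.8, 86.6 and 103.5 TPM with sgKLF5 and at 136, 130, 134 and 129 TPM with sgRosa. The 3 knockout libraries were the lowest, and the log2 fold change was -0.47 (SE 0.07, adjusted p = 0.00256). In all, 5 of 10 members passed there, beside 16.2% of all genes, but the other 4 were unstable. EHF (-0.41) and ESRP1 (-0.40) were lower and lost the call under median-of-ratios scaling, EHF also without sgKLF5 replicate 1 or sgRosa replicate 1 (adjusted p 0.0601 to 0.089) and ESRP1 without 4 of the 7 libraries (0.0544 to 0.0737). GRHL2 (-0.39) was lower and GRHL3 (0.67) higher, and each lost the call without 6 of the 7 libraries, with adjusted p from 0.0588 to 0.135 and from 0.0823 to 0.146. The median of all genes in this comparison was -0.112 on the log2 scale.

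The basal-like lines had calls for other members. In BxPC-3 experiment 2, EHF was at 143.5, 164, 180 and 153 TPM with sgKLF5 against 207, 178, 219 and 217 TPM with sgRosa, which overlapped at 1 library of each group, and the log2 fold change was -0.35 (SE 0.09, adjusted p = 0.00398). ESRP1 was at 44.8, 48.1, 49.7 and 47.3 TPM against 64.7, 51.9, 69.8 and 67.1 TPM, with no overlap, a change of -0.40 (SE 0.11, adjusted p = 0.00664). ELF3 was at 44.4 to 49.98 TPM with sgKLF5 and at 43.6 to 60.2 TPM with sgRosa, so the groups overlapped and no call was made.

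In that experiment 4 of 10 members passed, beside 34.6% of all genes, and in BxPC-3 experiment 1 2 of 10 passed, beside 16.2%. OVOL1 was lower in both, by -0.75 in experiment 1, where the call was lost without sgRosa replicate 2 (adjusted p = 0.152), and by -0.37 in experiment 2, where it was lost without sgKLF5 replicate 1 or sgRosa replicate 4 (adjusted p 0.0517 to 0.0564). GRHL3 in experiment 1 (-0.63) missed the threshold without any 1 of the 6 libraries (adjusted p 0.0524 to 0.378), and GRHL1 in experiment 2 (-0.51) without 3 of 8 (adjusted p 0.0665 to 0.0961). The difference between the BxPC-3 experiments passed for 0 of 10 by limma, 2 of them with an unadjusted p under 0.05, beside 16.7% of all genes.

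In T3M-4 experiment 2, OVOL2 was at 1.097, 1.56, 1.57 and 1.604 TPM with sgKLF5 against 2.08, 3.34, 3.09 and 3.81 TPM with sgRosa, with no overlap, and the log2 fold change was -0.72 (SE 0.13, adjusted p = 0.000352). ELF3 did not move in parallel: it was at 146 to 161.5 TPM against 129 to 199 TPM. EHF (0.23) and ELF1 (0.27) were higher and made up the 3 of 10 that passed, beside 34.6% of all genes, in a comparison whose median over all genes was 0.101. Both lost the call under median-of-ratios scaling, EHF also without 3 of 8 libraries (adjusted p 0.0528 to 0.0735) and ELF1 without sgKLF5 replicate 2 or sgRosa replicate 1 (0.0536 to 0.0731).

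T3M-4 experiment 1 had no member call (0 of 10 by limma, 1 with an unadjusted p under 0.05, beside 5.72% of all genes), and here sgKLF5 replicate 2 stood apart. That library had ELF1 at 5.78 TPM, GRHL2 at 8.29 TPM and GRHL3 at 2.90 TPM, where the other 3 held at least 35.3, 31.7 and 21.4 TPM. OVOL2 was at 0.3215, 1.06, 1.02 and 1.32 TPM against 3.03 and 2.01 TPM, a change of -0.88 that did not pass. Without replicate 2 it was -0.92 with an adjusted p of 0.0218, and 4696 genes passed instead of 723. The difference between the T3M-4 experiments in the KLF5 effect passed for 0 of 10 by limma, 2 of them with an unadjusted p under 0.05, beside 17.4% of all genes.

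SUIT-2 also had no member call (0 of 9 by limma, 2 with an unadjusted p under 0.05, beside 3.94% of all genes), and ELF3 there depended on 1 control library. ELF3 was at 88.2, 72.45, 92.2 and 113.6 TPM with sgKLF5 against 91.9, 174, 218 and 208 TPM with sgRosa. The lowest control is replicate 1, which overlapped with the knockout libraries and was also lowest for ELF1 (13.0 TPM) and GRHL2 (11.2 TPM). Without it the log2 fold change of ELF3 was -1.13 (adjusted p = 0.00471), and with it under median-of-ratios scaling -1.10 (adjusted p = 0.00456), while 1239 instead of 496 genes passed without it. GRHL2 was at 39.0 to 49.5 TPM with sgKLF5, above all 4 sgRosa libraries (11.2 to 34.7 TPM), with no call. The all-gene median of this comparison was 0.182.

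**Figure D2:**
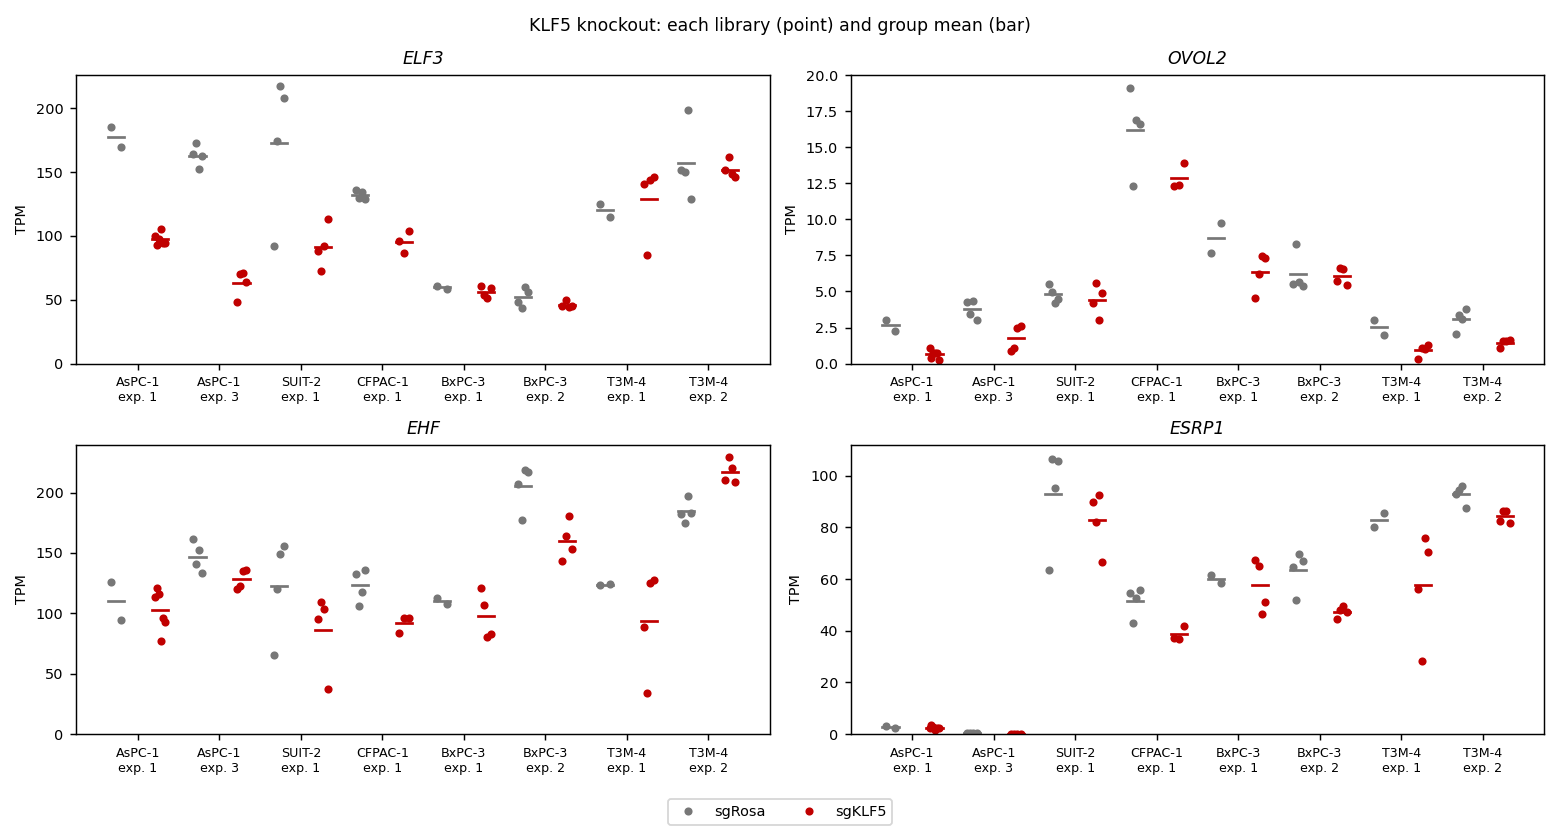
TPM of ELF3, OVOL2, EHF and ESRP1 in every sgRosa library (grey) and sgKLF5 library (red) of the 8 line and experiment comparisons, on a linear axis for each gene, with a bar at each group's mean. ELF3 lies lower with sgKLF5 in AsPC-1 (48.1 to 105.5 TPM against 152 to 185 TPM) and CFPAC-1, and OVOL2 in AsPC-1 and T3M-4.

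After loss of RUVBL1 or RUVBL2 in T3M-4, ELF3, GRHL1, GRHL3 and OVOL1 rose and ESRP1 fell with either guide set, and in AsPC-1 EHF, GRHL3 and ESRP2 fell and OVOL1 rose with RUVBL1 guides in both experiments. OVOL1 was thus higher after RUVBL1 knockout in AsPC-1, CFPAC-1 and T3M-4. Over the 9 comparisons 37 of 82 member tests passed, beside 38.7% of all gene tests, so the count itself says little about these genes, and the comparisons of a line and experiment share their sgRosa libraries.

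ELF3 in T3M-4 was the largest rise. It was at 403.5, 454 and 396 TPM in the 3 sgRUVBL1 libraries and at 367, 367, 354 and 398 TPM in the 4 sgRUVBL2 libraries, against 152, 150, 199 and 129 TPM with sgRosa. Every knockout library was above every control, and the log2 fold changes were 1.42 (SE 0.12, adjusted p = 5.19e-08) and 1.25 (SE 0.11, adjusted p = 7.44e-08). The median over all genes was 0.252 with RUVBL1 and 0.186 with RUVBL2 guides, and the ELF3 change is well past either.

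GRHL3, a grainyhead-like factor of epidermal barrier, followed in T3M-4. It was at 21.4, 26.0 and 22.2 TPM with sgRUVBL1 and at 21.5, 19.4, 18.2 and 28.6 TPM with sgRUVBL2, against 8.62, 10.3, 9.54 and 7.04 TPM. The groups did not overlap, and the changes were 1.301 (SE 0.16, adjusted p = 3.8e-06) and 1.21 (SE 0.15, adjusted p = 3.84e-06). OVOL1 was at 50.9, 59.9 and 56.7 TPM and at 49.8, 54.5, 54.1 and 52.6 TPM, against 29.6, 32.01, 29.4 and 19.8 TPM, again without overlap, with changes of 1.00 (adjusted p = 2.56e-06) and 0.93 (adjusted p = 2.71e-06). GRHL1 rose by 0.79 and 0.62, from 11.1 to 15.9 TPM with sgRosa to 22.9 to 28.2 and 19.2 to 25.1 TPM.

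ESRP1 went the other way in the same libraries. It was at 76.5, 82.1 and 74.7 TPM with sgRUVBL1 and 70.4, 78.5, 72.1 and 79.0 TPM with sgRUVBL2, all under the 4 sgRosa libraries at 93.1, 94.5, 96.2 and 87.4 TPM. Its changes were small, -0.25 (SE 0.06, adjusted p = 0.00146) and -0.30 (SE 0.05, adjusted p = 0.000168). In all, 7 of 10 members passed with RUVBL1 guides (60.5% of all genes did) and 5 of 10 with RUVBL2 guides (54.5%). The further RUVBL1 calls were EHF (0.20), lost without 6 of 7 libraries (adjusted p 0.0653 to 0.152) and turned to -0.10 by median-of-ratios scaling, and ELF1 (0.31), lost with that scaling.

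In AsPC-1, EHF had the largest fall with RUVBL1 guides on the log2(TPM + 1) scale, which understates falls of low genes. By the ratio of means to sgRosa, GRHL3 fell further in experiment 2 (0.348 against 0.354 for EHF) and in experiment 3 (0.520 against 0.622). In experiment 2 EHF was at 50.3, 62.1, 53.8 and 57.2 TPM with sgRUVBL1 against 154, 137, 179 and 161 TPM with sgRosa, with no overlap, a log2 fold change of -1.48 (SE 0.09, adjusted p = 5.93e-09). In experiment 3 it was at 75.7, 82.4, 108 and 99.3 TPM with sgRUVBL1 and 116, 126, 111 and 115 TPM with sgRUVBL2, against 161, 140.5, 153 and 133 TPM. Both groups lay under the controls, with changes of -0.69 (SE 0.09, adjusted p = 8.03e-06) and -0.32 (SE 0.09, adjusted p = 0.00851).

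The other 7 tested members also passed in AsPC-1 experiment 2, so that 8 of 8 did, beside 55.8% of all genes. OVOL1 rose, from 1.63, 2.28, 2.85 and 2.12 TPM with sgRosa to 5.44, 4.98, 5.49 and 6.08 TPM with sgRUVBL1, without overlap (1.02, SE 0.12, adjusted p = 4.73e-06). The falls were -0.998 for GRHL3, -0.74 for ESRP1, -0.63 for OVOL2, -0.57 for ELF1, -0.56 for ESRP2 and -0.46 for ELF3, with adjusted p between 0.000181 and 0.00849. For OVOL2 the groups touched, at 0.681 to 1.41 TPM against 1.396 to 3.23 TPM, and for the other 5 they were apart.

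In AsPC-1 experiment 3, 5 of 7 members passed with RUVBL1 guides (51.9% of all genes) and 4 of 7 with RUVBL2 guides (43.2%), which were not used in experiment 2. With RUVBL1, GRHL3 (-0.68, adjusted p = 0.00258) fell and OVOL1 (0.47, adjusted p = 0.00337) rose, while OVOL2 (-0.61) missed the threshold without sgRUVBL1 replicate 1 (adjusted p = 0.051) and ESRP2 (-0.66) without replicate 2 (0.0509). With RUVBL2, ESRP2 was at 5.69, 1.59, 3.55 and 6.04 TPM against 6.99 to 8.47 TPM, all under the controls but widely spread (-0.85, adjusted p = 0.00416), and ELF1 (0.20, adjusted p 0.0778 to 0.114 without 6 of 8 libraries) and OVOL1 (0.33, 0.058 to 0.118 without 4 of 8) were unstable. ELF3 was at 162 to 169 TPM with sgRUVBL1 and 142 to 179 TPM with sgRUVBL2 against 152 to 173 TPM, with no call. All-gene medians were 0.156 and 0.134.

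The RUVBL1 effect itself differed between the AsPC-1 experiments for 5 of 9 members, beside 15.7% of all genes. Experiment 2 minus experiment 3 was -0.79 for EHF, -0.57 for ESRP1, -0.53 for ELF1 and -0.49 for ELF3 and 0.55 for OVOL1, each change being larger in experiment 2. For ESRP1 the comparison is limited by its level in experiment 3, at most 0.465 TPM.

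CFPAC-1 and BxPC-3 moved less. In CFPAC-1, ESRP2 was at 9.70, 12.7, 11.0 and 9.92 TPM with sgRUVBL1 against 20.8, 22.5, 22.3 and 18.9 TPM, with no overlap (-0.91, SE 0.10, adjusted p = 3.02e-05), GRHL2 was at 20.9 to 33.7 TPM against 33.9 to 39.1 TPM (-0.46, adjusted p = 0.00447), and OVOL1 at 5.31 to 7.74 TPM against 3.28 to 5.50 TPM (0.58, adjusted p = 0.00607). ELF3 was higher by 0.19 and lost the call without sgRUVBL1 replicate 2 (adjusted p = 0.0624). These 4 of 10 stand beside 43.8% of all genes, whose median was -0.199. With the 2 sgRUVBL2 libraries 2 of 10 passed (12.1% of all genes), ESRP2 at 15.1 and 12.7 TPM (-0.57, lost without sgRUVBL2 replicate 2, adjusted p = 0.0875) and ELF3 at 169 and 171 TPM (0.36, lost without either sgRUVBL2 library, 0.0622 to 0.0732).

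In BxPC-3, ELF3 was at 68.0, 80.2, 63.2 and 78.3 TPM with sgRUVBL1 against 47.9, 43.6, 60.2 and 56.0 TPM with sgRosa, all above (0.48, SE 0.10, adjusted p = 0.00482). GRHL3 (0.51) was the other of the 2 of 10 that passed, beside 16.0% of all genes, and was lost without 6 of 8 libraries (adjusted p 0.0677 to 0.102). With RUVBL2 guides 0 of 10 passed by limma, 4 with an unadjusted p under 0.05, beside 9.76% of all genes, and without sgRUVBL2 replicate 2 GRHL2 (-0.55, adjusted p = 0.00481) and ESRP2 (-0.51, adjusted p = 0.00722) passed. ELF3 after RUVBL1 knockout was thus lower in AsPC-1 experiment 2, without a call in experiment 3, and higher in BxPC-3 and T3M-4, and the lines being in separate tables this difference was not tested.

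**Figure D3:**
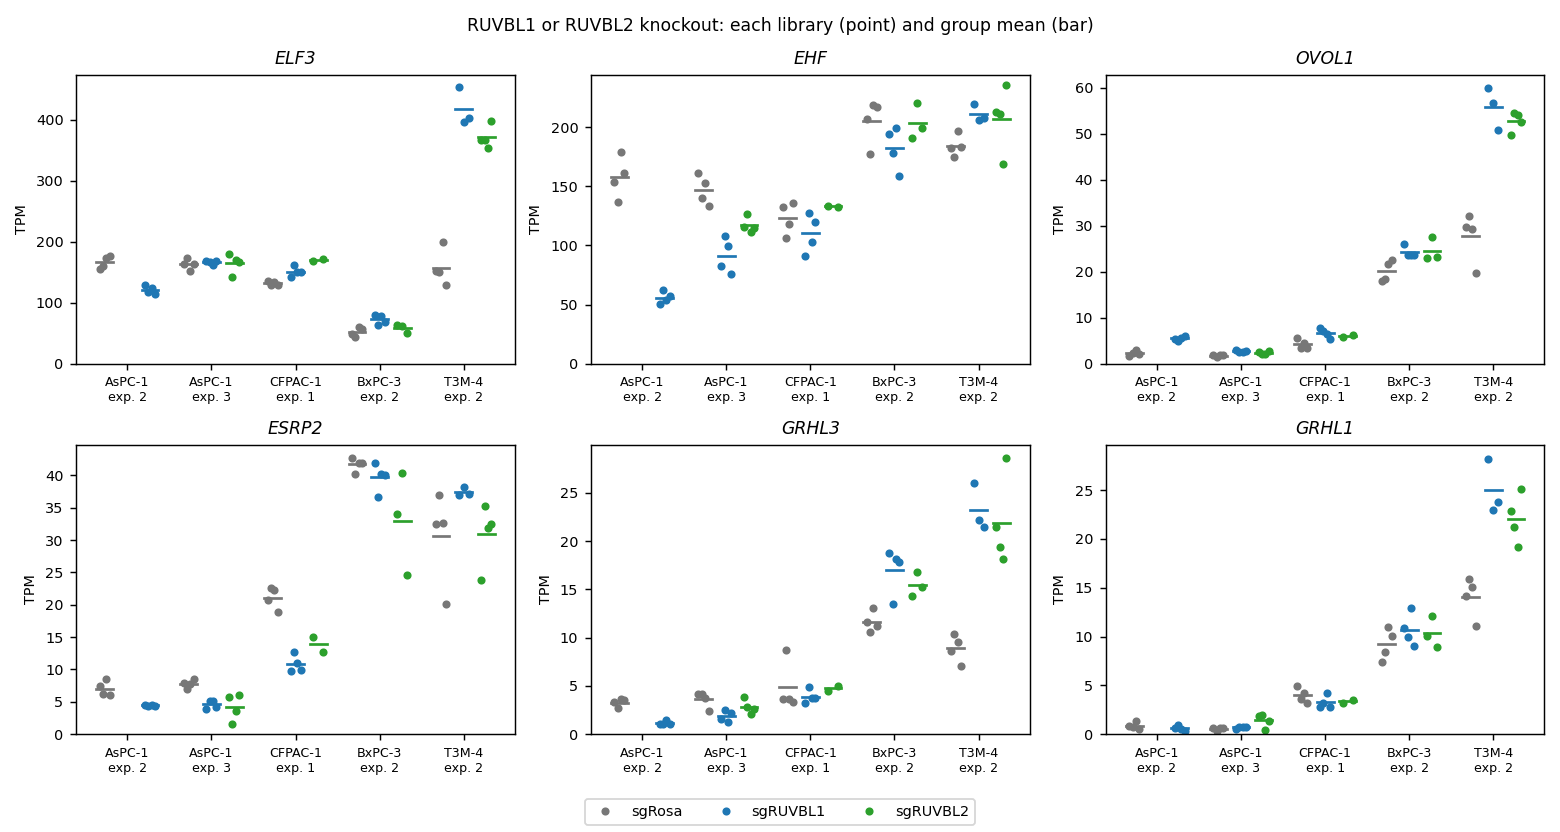
TPM of ELF3, EHF, OVOL1, ESRP2, GRHL3 and GRHL1 in every sgRosa, sgRUVBL1 and sgRUVBL2 library of AsPC-1, CFPAC-1, BxPC-3 and T3M-4, with a bar at each group's mean. In T3M-4 the knockout libraries of ELF3 (354 to 454 TPM) lie above its controls (129 to 199 TPM), and in AsPC-1 those of EHF lie below.

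CDK1 and RPA3 guides give a view of loss of genes that dividing cells need. In T3M-4 experiment 2, 6 of 10 members were higher with sgCDK1 (16.8% of all genes passed and 13% were higher): GRHL3 at 17.5 and 16.0 TPM (0.86), GRHL1 at 24.6 and 24.1 TPM (0.76) and OVOL1 at 46.5 and 41.8 TPM (0.67) lay above all 4 sgRosa libraries, with ELF3 (0.47), ELF1 (0.43) and EHF (0.37) beside them. All 6 lost the call when only the sgCDK1 and sgRosa libraries were fitted, with adjusted p from 0.0578 to 0.199. Leaving out sgCDK1 replicate 1 ended the calls of ELF3 (adjusted p = 0.306), GRHL3 (0.0601) and OVOL1 (0.0566), leaving out sgCDK1 replicate 2 that of ELF1 (0.0986), and leaving out either that of EHF (0.0811 to 0.0847). With sgRpa3 3 of 10 were higher (24.6% of all genes passed and 18.4% were higher), ELF3 (0.38), ELF1 (0.33) and EHF (0.27), each lost without 3 to 5 of the 6 libraries (adjusted p 0.0519 to 0.374). In T3M-4 experiment 1, sgRpa3 gave 0 of 10 member calls and 0.00% of all genes by limma, with 189 genes at an unadjusted p under 0.05.

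Elsewhere single members rose with these guides. GRHL3 in AsPC-1 was at 10.0 and 8.78 TPM with sgCDK1 against 4.13, 4.18, 3.75 and 2.42 TPM with sgRosa (1.19, SE 0.21, adjusted p = 0.000618), the 1 of 7 that passed beside 16.7% of all genes. ELF3 rose in BxPC-3 experiment 2 with sgRpa3, to 91.8 and 93.4 TPM (0.83, SE 0.13, adjusted p = 0.000322, 1 of 10 beside 20.8% of all genes), and was higher with sgCDK1 by 0.55 (1 of 10 beside 5.82%), a call lost without either sgCDK1 library (adjusted p 0.0743 to 0.186). In CFPAC-1 the libraries labelled sgRpa3 had ELF3 at 216 and 236.5 TPM (0.77, SE 0.08, adjusted p = 2.81e-05) and ESRP1 higher by 0.39 (lost without 4 of 6 libraries, 0.0533 to 0.289), 2 of 10 beside 11.6%, and those labelled sgCDK1 gave 0 of 10 and 0.00% of all genes by limma, with 1477 genes at an unadjusted p under 0.05. With sgRpa3, 0 of 7 passed by limma in AsPC-1 (0.654% of all genes, ELF3 alone with an unadjusted p under 0.05) and 0 of 10 in BxPC-3 experiment 1 (0.307%, no member under that unadjusted p).

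Set directly against the mean of the CDK1 and RPA3 knockouts, ELF3 was lower with KLF5 guides in all 4 lines so tested. The differences were -1.47 in AsPC-1, where OVOL2 (-1.11) and GRHL3 (-0.75) were also lower (3 of 7, beside 34.7% of all genes), and -0.85 in BxPC-3, where ESRP1 (-0.59), GRHL1 (-0.52), EHF (-0.27) and OVOL1 (-0.27) were also lower (5 of 10, beside 46.8%). In T3M-4 ELF3 differed by -0.46, with OVOL2 (-0.61), GRHL3 (-0.47), GRHL1 (-0.39) and ESRP1 (-0.19) lower as well (5 of 10, beside 28.4%). In CFPAC-1, where the labels of the CDK1 and RPA3 libraries are not settled, ELF3 differed by -1.03 and EHF, GRHL2, OVOL1, OVOL2 and ESRP1 were lower too (6 of 10, beside 43.7%). The shares of all genes given here count calls in either direction. Those called lower were 19.1% in AsPC-1, 19.7% in BxPC-3, 15.3% in T3M-4 and 34% in CFPAC-1. ELF3 was itself higher than sgRosa in several CDK1 and RPA3 groups, so its differences from this mean are larger than those against sgRosa. Against sgRosa, KLF5 guides gave no ELF3 call in experiment 2 of BxPC-3 (-0.16) or of T3M-4 (-0.04). In these lines the difference from the mean is therefore no fall of ELF3 against sgRosa.

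The same comparison was made for RUVBL1 and RUVBL2, and ELF3 against this mean no longer rose outside T3M-4. With RUVBL1 guides ELF3 differed by -0.22 in BxPC-3 (adjusted p = 0.151) and by -0.37 in CFPAC-1 (adjusted p = 0.000147), where it had been higher than sgRosa in both, and OVOL1 in AsPC-1 differed by 0.17 (adjusted p = 0.257). In T3M-4 ELF3 was higher by 0.99 with RUVBL1 and 0.82 with RUVBL2 guides, GRHL3 by 0.81 and 0.72 and OVOL1 by 0.62 and 0.54, GRHL1 by 0.32 with RUVBL1 alone, and ESRP1 was lower by -0.31 and -0.36 (5 of 10 beside 41.8% and 4 of 10 beside 38.2%). In AsPC-1 EHF (-0.65 and -0.29), GRHL3 (-1.28 and -0.87), OVOL2 (-0.87 and -0.68) and ESRP2 (-0.72 and -0.92) were lower with both (4 of 7 beside 51.2% and 4 of 7 beside 42.1% in either direction, with 19.1% and 14.8% of all genes lower). BxPC-3 had 5 of 10 (20.4%) and 6 of 10 (20.7%), with GRHL3 (0.78 and 0.66) and OVOL1 (0.35 and 0.37) higher, GRHL2 (-0.33 and -0.46), OVOL2 (-0.64 and -0.60) and ESRP1 (-0.50 and -0.40) lower, and ELF3 lower with RUVBL2 guides (-0.53). In CFPAC-1, 8 of 10 were lower with RUVBL1 guides (55.4% of all genes passed and 47.7% were lower), ESRP2 by -0.90 and GRHL2 by -0.67 among them, and 2 of 10 with RUVBL2 guides (23.8% and 20.7%), ESRP2 by -0.57 and GRHL2 by -0.54.

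CHD4 guides in AsPC-1 moved nearly every tested member, 8 of 9, beside 50.0% of all genes. GRHL3 was at 0.833, 1.06, 0.987 and 1.23 TPM with sgCHD4 against 4.16, 6.12, 4.93 and 4.36 TPM with sgRosa (-1.53, SE 0.13, adjusted p = 1.65e-06), and OVOL1 at 7.61, 7.78, 9.12 and 7.17 TPM against 2.58, 2.66, 3.299 and 2.67 TPM (1.23, SE 0.11, adjusted p = 2.31e-06). Neither pair of groups overlapped. ELF3 fell, from 218 to 239 TPM with sgRosa to 136 to 161 TPM (-0.66, adjusted p = 2.42e-06), as did OVOL2 (-0.87, adjusted p = 0.000563), whereas ESRP1 rose to 8.06, 6.85, 10.3 and 8.08 TPM from 4.70, 3.69, 4.42 and 5.36 TPM (0.75, adjusted p = 0.000552) and ESRP2 rose by 0.57 (adjusted p = 0.000371). EHF (-0.29) and GRHL1 (0.34) lost the call without 4 of 8 libraries each (adjusted p 0.0584 to 0.106 and 0.0536 to 0.0702). SERPINB5 guides gave 0 of 8 by limma, beside 0.0343% of all genes, with 802 genes at an unadjusted p under 0.05.

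CB-6644 lowered EHF in empty-vector AsPC-1 cells, which then held less EHF than treated cells with either cDNA. EHF was at 59.5, 57.5 and 59.6 TPM in the EV cells given CB-6644, at 169, 175 and 166 TPM in the A62T cells and at 139, 132 and 146 TPM in the dF109 cells, and the DMSO libraries were at 175, 173 and 154 TPM for EV, A62T and dF109. In EV cells all 3 treated libraries lay under all DMSO libraries, with a log2 fold change of -1.49 (SE 0.06, adjusted p = 4.78e-09). Compared directly under the compound, EV cells had less EHF than A62T cells by -1.51 and than dF109 cells by -1.22.

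In EV AsPC-1 cells 6 of 8 members passed, beside 64.4% of all genes, whose median was 0.192. OVOL1 rose, to 4.28, 3.59 and 4.38 TPM from 1.68, 1.77 and 1.97 TPM (0.85, SE 0.09, adjusted p = 6.41e-06), and GRHL3 (-0.75, adjusted p = 0.00215), ESRP2 (-0.45, adjusted p = 0.00215) and ELF3 (-0.23, adjusted p = 0.00124) fell. The GRHL3 change rests on a spread control, with DMSO at 8.44 TPM in EV cells but 4.48 and 4.28 TPM in the others, all above 2.68 to 2.96 TPM. GRHL1 was higher by 0.60 but by 0.34 (adjusted p = 0.0572) against the EV DMSO library alone.

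With A62T 1 of 8 passed (12.7% of all genes, median 0.101), OVOL1 by 0.33, lost without 5 of the 6 libraries (adjusted p 0.0544 to 0.108). With dF109 5 of 8 passed (33.4%, median 0.141), of which OVOL1, at 2.78, 2.80 and 3.04 TPM, held in every setting that tested it (0.46, SE 0.09, adjusted p = 0.00388). EHF (-0.27), GRHL3 (-0.53), OVOL2 (-0.42) and ELF3 (0.16) lost the call in at least 1 setting, EHF against its own DMSO library alone (-0.15, adjusted p = 0.063), GRHL3 without dF109 CB-6644 replicate 1 or 2 (0.0846 to 0.0947), OVOL2 without 4 (0.0562 to 0.151) and ELF3 without 3 (0.0563 to 0.108), ELF3 turning to -0.04 under median-of-ratios scaling. Directly under the compound, EV and A62T cells differed in 5 of 8 members (51.1% of all genes) and EV and dF109 cells in the same number (47.2%): besides EHF, ELF3 (-0.27 and -0.39) and ESRP2 (-0.47 and -0.54) were lower and OVOL1 (0.52 and 0.39) and GRHL1 (0.51 and 0.63) higher in EV cells.

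In T3M-4 the member that fell was OVOL2. It was at 0.788, 0.509 and 0.745 TPM in EV cells given CB-6644, at 2.16, 2.12 and 2.51 TPM in A62T cells and at 1.27, 1.23 and 1.11 TPM in dF109 cells, against 2.104, 2.81 and 2.11 TPM in the DMSO libraries. The EV libraries were under all controls (-0.99, SE 0.12, adjusted p = 0.000109), as were the dF109 libraries (-0.60, SE 0.12, adjusted p = 0.00472), whereas A62T libraries lay among them. Of 10 members 5 passed in EV cells (34.3% of all genes), and the other 4 were lost when only the EV and DMSO libraries were fitted: EHF (-0.36, adjusted p = 0.086), OVOL1 (0.48, 0.0977), ELF1 (-0.26, 0.202) and ESRP1 (-0.21, 0.189). ELF1 was also lost without 4 of 6 libraries (0.0644 to 0.098) and ESRP1 without EV CB-6644 replicate 2 or 3 (0.0521 to 0.0634). ELF3 was at 139.5, 125 and 94.1 TPM against 89.5, 151 and 125 TPM, with no call, whereas with RUVBL1 or RUVBL2 guides it rose in this line.

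The T3M-4 cells with either cDNA had a shift of all genes that touches every count. The all-gene median was 0.326 with A62T, where 6 of 10 members were higher (50.0% of all genes passed and 45.4% were higher). It was 0.286 with dF109, where 4 were higher and OVOL2 lower (5 of 10, beside 37.6% that passed and 34.3% that were higher). Under median-of-ratios scaling the higher members all lost the call, and EHF, ELF1 and GRHL1 with A62T and GRHL1 with dF109 took the other sign. In A62T cells, ELF3 (0.63) was lost without CB-6644 replicate 1 (adjusted p = 0.0536), OVOL1 (0.41) without CB-6644 replicate 1 or 3 (0.0538 to 0.0651) and GRHL1 (0.34) without CB-6644 replicate 1 or 2 or the dF109 DMSO library (0.0612 to 0.078), and in dF109 cells ELF3 (0.57) and GRHL1 (0.31) each without 5 (0.0602 to 0.0808 and 0.0609 to 0.131). EV cells compared directly with either cDNA under the compound had 9 of 10 members lower, all but OVOL1. Beside them, 41.4% of all genes were lower than in A62T cells and 29.8% than in dF109 cells. In either direction 50.6% and 34.6% of all genes differed, with all-gene medians of -0.268 and -0.236. OVOL2 (-0.96), ESRP2 (-0.78) and GRHL3 (-0.74) were furthest from A62T cells. The single DMSO libraries already differed, with GRHL3 at 8.87 TPM in EV and 18.2 TPM in A62T cells, ESRP2 at 26.3 and 37.55 TPM, ELF3 at 89.5 and 151 TPM and OVOL2 at 2.104 and 2.81 TPM, so the gap under the compound is not the change it gave. Against dF109 cells, the ESRP1 difference was 0.00 under median-of-ratios scaling.

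T84 colorectal cells lost OVOL2 on CB-6644. It was at 8.99, 8.22, 6.59 and 10.3 TPM against 31.4, 31.1, 32.4 and 27.6 TPM with DMSO, with no overlap, a log2 fold change of -1.74 (SE 0.10, adjusted p = 6.34e-10). EHF was at 97.0, 94.98, 91.8 and 93.6 TPM against 135, 158, 149 and 162 TPM (-0.67, SE 0.05, adjusted p = 1.9e-08). GRHL3 (-0.56), GRHL1 (-0.49), ESRP2 (-0.38) and ESRP1 (-0.25) fell as well, with adjusted p between 7.54e-07 and 0.00119. In all 8 of 10 passed, beside 71.4% of all genes with a median of 0.134, and the 2 that were higher, OVOL1 (0.29) and ELF1 (0.23), lost the call under median-of-ratios scaling, at 0.10 and 0.05.

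H1048 shared the EHF fall and not the size of the OVOL2 fall. EHF was at 197, 204, 197 and 200 TPM against 329, 322.6, 351 and 347 TPM (-0.76, SE 0.03, adjusted p = 1.35e-09), with no overlap, and OVOL2 at 29.5, 29.0, 30.8 and 30.5 TPM against 37.9, 34.95, 35.4 and 34.8 TPM (-0.25, adjusted p = 0.00013). ELF3 rose, to 31.0, 28.7, 31.3 and 28.3 TPM from 21.3, 18.6, 17.1 and 16.96 TPM (0.67, SE 0.07, adjusted p = 2.08e-06), and so did OVOL1 (0.64, adjusted p = 2.21e-05). GRHL3 (-0.51), ESRP1 (-0.45), ESRP2 (-0.37), GRHL2 (-0.32) and GRHL1 (-0.27) fell, and these 9 of 10 calls, beside 77.9% of all genes with a median of 0.177, held under every alternative.

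A375 and RH30, which lack most of the set, had 2 members tested each, ELF1 and GRHL1. GRHL1 fell in A375, to 0.51, 0.891, 0.689 and 0.590 TPM from 2.00, 1.46, 2.098 and 1.72 TPM (-0.76, SE 0.11, adjusted p = 4.17e-05), the 1 of 2 that passed beside 81.1% of all genes (median 0.156). In RH30 both were higher (2 of 2, beside 77.7% of all genes that passed and 50.4% that were higher, median 0.134), ELF1 by 0.21 and GRHL1 by 0.24, and both lost the call under median-of-ratios scaling, GRHL1 also without 4 of 8 libraries (adjusted p 0.0519 to 0.0879).

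The change after CB-6644 was tested for a difference between the 4 lines. From H1048, T84 differed in 6 of 10 members (50.2% of all genes), with OVOL2 further down in T84 by -1.49, ELF3 by -0.75 and OVOL1 by -0.35, and GRHL2 (0.45), ELF1 (0.27) and ESRP1 (0.20) further up, while for EHF no difference was called. From A375, T84 differed in 9 of 10 (58.3%), and from RH30 in 7 of 10 (50.5%), comparisons in which most members were near 0 TPM in the other line with DMSO. In A375, 6 members lay above all DMSO libraries with CB-6644, untested, while EHF, ELF1 and OVOL2 overlapped with them and GRHL1 fell. Mean levels rose there for GRHL3 (0.164 to 0.698 TPM), OVOL1 (0.0343 to 0.629), ESRP1 (0.115 to 0.558) and ESRP2 (0.344 to 1.21). In RH30, ESRP2 rose from 0.179 to 0.657 TPM. The differences from T84 include such rises. OVOL2 gave the largest of these differences too, -1.65 and -1.72.

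**Figure D4:**
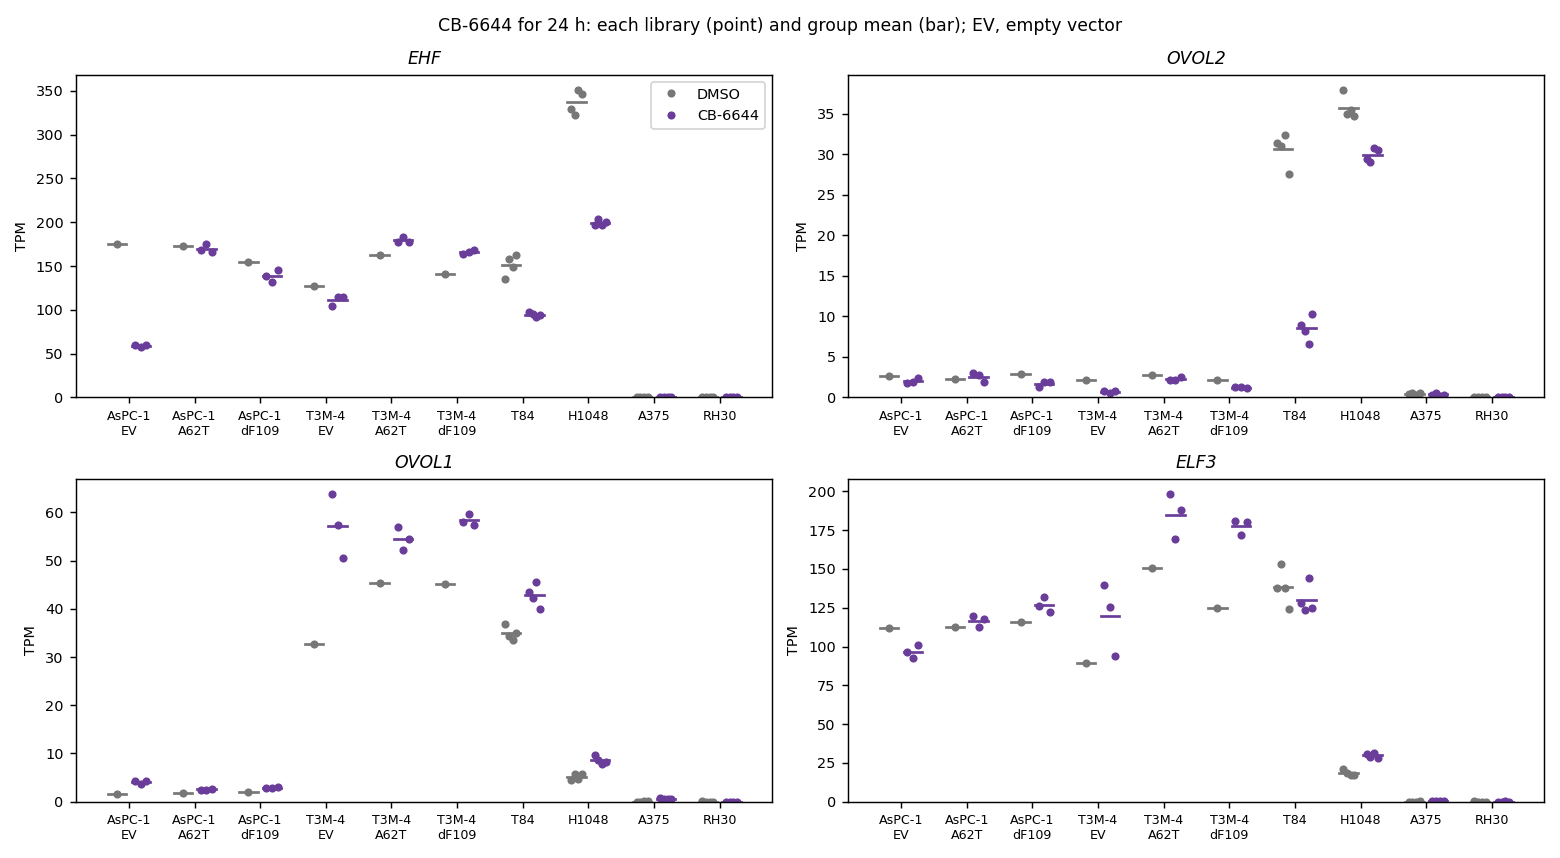
TPM of EHF, OVOL2, OVOL1 and ELF3 in every DMSO and CB-6644 library of AsPC-1 and T3M-4 with EV, A62T or dF109 and of T84, H1048, A375 and RH30, with a bar at each group's mean. EHF lies lower with CB-6644 in EV AsPC-1 (57.5 to 59.6 TPM), T84 and H1048, and OVOL2 in EV T3M-4 and T84.

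Of 127 member calls against a control, 68 held under every alternative setting in which the gene was tested. Low genes were not tested with a mean of at least 5 TPM. Of the other 59 calls, 45 were ended by leaving out at least 1 library. The 19 comparisons of RUVBL1 or RUVBL2 guides with sgRosa or of CB-6644 with DMSO include the A62T and dF109 cells, and several share controls. Of all genes, 2.83% to 53.9% were called higher in a comparison and 1.98% to 37.3% lower. Over the 19, OVOL1 was called higher in 14 and lower in 0 by limma, and several of these calls did not hold under every alternative. ESRP2 was called lower in 8, OVOL2 in 7 and ESRP1 in 6, each with 0 calls higher. Of the 19, ESRP1 was tested in 12 and OVOL1, OVOL2, ESRP2, EHF and ELF3 in 17 each. Where untested, ESRP2 lay above all controls in A375 and RH30. ESRP1, also untested there, lay above them in A375 and below them in AsPC-1 experiment 3 with RUVBL1 guides. EHF was called lower in 8 and higher in 2, both in T3M-4, and ELF3 lower in 2 and higher in 9. The map of all changes shows these directions by comparison.

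**Figure D5:**
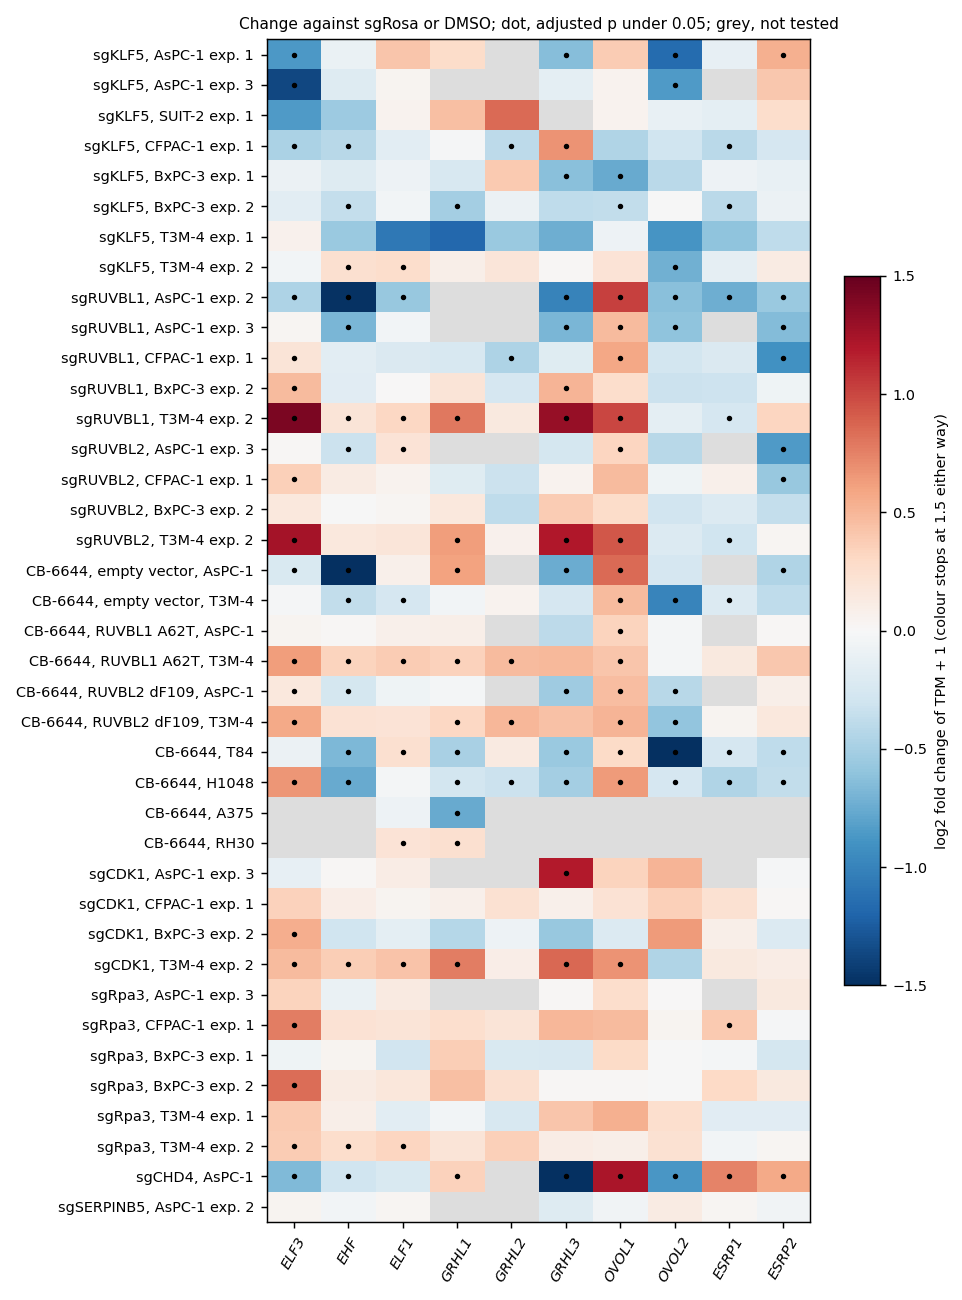
Log2 fold change of the 10 genes in the 39 comparisons against sgRosa or DMSO, blue for lower and red for higher, with the colour ending at 1.5, a dot where the adjusted p is under 0.05 and grey where the gene was not tested. GRHL2 is grey throughout AsPC-1, and ELF3 is lower with sgKLF5 in AsPC-1 and CFPAC-1 and higher with sgRUVBL1 and sgRUVBL2 in T3M-4.

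Genes related to the 10 members were taken from lists and are given by counts beside the median of all genes. Only genes of a list with the most calls in a direction are named. Of all gene tests, 20.6% passed over the KLF5 comparisons, 38.7% over the RUVBL comparisons and 48.7% in EV cells on CB-6644, in either direction. Of the 21 other ETS factors, ELF4 and ETS2 were lower in 4 of 8 KLF5 comparisons each and ELK3 in 3, with median changes of -0.51, -0.47 and -0.48, and ETV6 was higher in 3. ETV1, of the PEA3 group, was lower in 6 of 9 RUVBL comparisons and ETV4 in 4, and ETS1, ETS2 and ETV3 were higher in 4 each, ETS1 also being lower in 1. In T3M-4 with RUVBL1 guides 12 of 18 tested ETS factors were higher, beside 45.9% of all genes, and 1 lower (list median 0.53, all genes 0.252), and in CFPAC-1 9 of 17 were lower, beside 37.3%, and 0 higher by limma (-0.28, all genes -0.199).

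Epithelial junction and surface genes are given with the share of all genes called in the same direction. With RUVBL1 guides in T3M-4, 14 of 17 were higher, beside 45.9% of all genes, and 0 lower by limma (list median 1.03, all genes 0.252), and with RUVBL2 guides 13 of 17 were higher, beside 39.3% (0.94, all genes 0.186). In AsPC-1 with RUVBL1 guides, 7 of 13 were lower (25.8% of all genes) and 4 higher (30%) in experiment 2 (list median -0.17, all genes 0.018), and 6 were lower (15.2%) and 1 higher (36.6%) in experiment 3 (-0.14, all genes 0.156). LSR (a tricellular junction protein) and ST14 (matriptase) were higher in 6 of 9 RUVBL comparisons each. CLDN3, a claudin, was higher in 5 and lower in 3 of the 9. After KLF5 knockout in AsPC-1, 8 of 13 junction genes were higher in experiment 1, beside 17.1% of all genes (list median 0.45, all genes 0.082), and 5 were lower in experiment 3, beside 12.3% (-0.10, all genes 0.020). In T3M-4 experiment 2, 9 of 17 were higher, beside 23.4% (0.34, all genes 0.101), and in BxPC-3 experiment 2, 9 of 17 were lower, beside 13.6%, and 1 higher (-0.21, all genes 0.047). CLDN3, CLDN4 and SPINT1 (a matriptase inhibitor) were higher in 4 of 8 each, CLDN3 being lower in 2 and CLDN4 in 1. In EV cells on CB-6644, LSR was higher and TJP3 and CLDN7 were lower in both lines.

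Mesenchymal regulators were few among the tested genes, 3 to 9 of 10 in a line. The genes named are those with the most calls, and 38.7% of RUVBL and 20.6% of KLF5 gene tests passed over all genes. SNAI1, a repressor of epithelial genes, was higher in 5 of 9 RUVBL comparisons (median 0.96) and in both EV lines on CB-6644 (1.75 and 1.69), while VIM (vimentin) was lower in 6 of 9. After KLF5 knockout FN1 (fibronectin) and CDH2 (N-cadherin) were higher in 3 of 5 each, with medians of 2.33 and 1.24, SNAI2 was lower in 3 of 8 and higher in 1, and VIM was higher in 3 and lower in 2.

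Splicing genes other than ESRP1 and ESRP2 were described in the same way, beside the same shares of all gene tests. PTBP1, an RNA-binding protein that represses exons, was lower in 6 of 9 RUVBL comparisons (median -0.31) and in both EV lines on CB-6644 (-0.84 and -0.55), and RBM47 was higher in 4 and lower in 1 of the 9 and higher in 3 of 8 KLF5 comparisons. Of the genes whose exons ESRP proteins are known to direct, ENAH was lower in 7 of 9 RUVBL comparisons and higher in 4 of 8 KLF5 comparisons, FGFR2 was lower in 4 and higher in 1 of 9 and went both ways after KLF5 knockout, and CTNND1 was lower in 3 of 8 KLF5 comparisons. These are levels of whole genes, and exon use was not analysed here.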

How the data were processed

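Poly-A RNA of 183 libraries was sequenced with single-end reads. Per the labels and the study's methods, the authors quantified transcripts with kallisto against hg38, removed transcripts of low abundance at a limit not given in the sources used here, and summarised genes with tximport, and the deposited values are TPM. The authors tested counts with DESeq2, but only TPM tables were used here, so no count test was run, sequencing depth is unknown and no counting interval can be given. All 183 value columns of the 8 tables were used and 0 were left out. MAL2 and CD44, which belong to the lists of related genes, were not analysed here.

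For each line and experiment, all libraries entered 1 limma fit (R 4.3.3, limma 3.58.1, empirical Bayes with an intensity trend) on log2(TPM + 1), with genes averaging at least 1 TPM over those libraries, and p-values were adjusted by Benjamini-Hochberg over all genes tested with a threshold of 0.05. Fold changes are on this log2(TPM + 1) scale and understate changes of low genes. Groups came from the library titles, whose first number was read as the experiment where a line had more than 1. The fit was tested on simulated data with known changes. Alternatives were a pseudocount of 0.1, a mean of at least 5 TPM, no filter, median-of-ratios scaling, fits restricted to both groups of a comparison, use of each construct's own DMSO library, a replicate block, and leaving out each library in turn.

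All 10 members were followed in every comparison. Related genes were named by the number of comparisons of a family in which they passed in the same direction, at most 3 per list and direction. Genes of similar level were named by the 3 highest Pearson r over 9 lines among genes with at least 10 TPM in 1 line and a range of at least 2 on the log2 scale. The members and lists were chosen with earlier results of these data known. Promoter sequence was taken from RefSeq (GRCh38.p14), and figures were drawn with matplotlib 3.10.9 under Python 3.11.15.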

Additional observations from a re-analysis of the deposited data

Results flagged for a closer look

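In 25 of 245 sets of 4 to 10 libraries, 1 library stood apart from the rest of its group for a member gene, where chance alone gives about 1 in 20. The T3M-4 experiment 1 sgKLF5 replicate 2 library stood apart for 6 members, always as the lowest, and was also the lowest of its group for EHF, GRHL1 and ESRP1. It held ELF3 at 85.34 TPM (the others 140.4 to 146), ELF1 at 5.782 (35.32 to 48.85), ESRP2 at 16.67 (37.2 to 43.71), GRHL2 at 8.293 (31.72 to 41.37), GRHL3 at 2.9 (21.38 to 26.9) and OVOL1 at 22.75 (54.69 to 56). In SUIT-2, sgRosa replicate 1 was low for ELF1 (13.04 TPM, the others at least 29.14) and GRHL2 (11.23, at least 29.22), sgKLF5 replicate 4 for EHF (37.47, at least 94.89) and sgKLF5 replicate 2 for ESRP2 (22.06, at least 28.76).

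In AsPC-1, the libraries apart were sgSERPINB5 replicate 4 for EHF (128.3 TPM, the others 159 to 165.6), sgRUVBL2 replicate 3 of experiment 3 for ELF1 (35.72, at least 41.1) and OVOL2 (3.16, at most 2.454), sgKLF5 replicate 1 of experiment 1 for GRHL3 (1.971, at most 1.593), sgRUVBL1 replicate 3 of experiment 2 for GRHL3 (1.459, at most 1.05), sgCHD4 replicate 3 for ELF3 (160.7, at most 140) and sgRosa replicate 3 of the CHD4 experiment for OVOL1 (3.299, at most 2.674). In BxPC-3 they were sgKLF5 replicate 1 of experiment 1 for GRHL1 (3.458 TPM, at most 2.852) and, in experiment 2, sgRUVBL1 replicate 3 for GRHL3 (13.44, at least 17.8), sgRUVBL1 replicate 2 for OVOL1 (26.01, at most 23.63) and sgRosa replicate 2 for OVOL2 (8.27, at most 5.641). In T3M-4 experiment 2 they were the sgKLF5 libraries replicate 3 for GRHL1 (15.74 TPM, at most 14.68), replicate 4 for GRHL3 (6.436, at least 9.76) and replicate 1 for OVOL2 (1.097, at least 1.555), and in CFPAC-1 sgRosa replicate 2 for GRHL3 (8.676, at most 3.684).

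For 28 member and contrast pairs, the change differed between groups by limma with an adjusted p under the threshold. Beside them, 14.2% of all gene tests passed between experiments and 53% between lines. Between the AsPC-1 experiments, the log2 change of ELF3 after KLF5 knockout differed by 0.51 (experiment 1 minus 3), and after RUVBL1 knockout (experiment 2 minus 3) ELF3 differed by -0.49, EHF by -0.79, ELF1 by -0.53, OVOL1 by 0.55 and ESRP1 by -0.57. After CB-6644, T84 minus H1048 was -0.75 for ELF3, 0.27 for ELF1, 0.45 for GRHL2, -0.35 for OVOL1, -1.49 for OVOL2 and 0.20 for ESRP1. T84 minus A375 was -0.31 for ELF3, -0.56 for EHF, 0.31 for ELF1, 0.27 for GRHL1, -1.10 for GRHL3, -0.37 for OVOL1, -1.65 for OVOL2, -0.73 for ESRP1 and -1.10 for ESRP2. T84 minus RH30 was -0.70 for EHF, -0.73 for GRHL1, -0.57 for GRHL3, 0.30 for OVOL1, -1.72 for OVOL2, -0.22 for ESRP1 and -0.87 for ESRP2.

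In other cases the libraries of 1 line all lay below their controls and those of another line all above, and the difference was not tested because the lines are in separate tables. With KLF5 guides, the log2 change of EHF was -0.41 in CFPAC-1 and 0.23 in T3M-4 experiment 2, and that of GRHL2 -0.39 in CFPAC-1 and 0.85 in SUIT-2. The SUIT-2 value had no call (adjusted p = 0.226 by limma). It includes sgRosa replicate 1, at 11.23 TPM where the others held at least 29.22. The calls of EHF in both lines and of GRHL2 in CFPAC-1 were unstable. ESRP2 was at -0.09 in BxPC-3 experiment 2 and -0.25 in CFPAC-1 against 0.53 and 0.40 in AsPC-1 experiments 1 and 3, and OVOL1 at -0.75 and -0.37 in BxPC-3 experiments 1 and 2 and -0.45 in CFPAC-1 against 0.38 in AsPC-1 experiment 1. With RUVBL1 guides, ELF3 was at -0.46 in AsPC-1 experiment 2 and at 0.48, 0.19 and 1.42 in BxPC-3, CFPAC-1 and T3M-4. EHF was at -1.48 and -0.69 in AsPC-1 experiments 2 and 3 and 0.20 in T3M-4, ELF1 at -0.57 in AsPC-1 experiment 2 and 0.31 in T3M-4, and GRHL3 at -0.998 in AsPC-1 experiment 2 and at 0.51 in BxPC-3 and 1.301 in T3M-4. With CB-6644, ELF1 was at -0.26 in EV T3M-4 and at 0.23 in T84 and 0.21 in RH30, ELF3 at -0.23 in EV AsPC-1 and 0.67 in H1048, and GRHL1 at -0.49, -0.76 and -0.27 in T84, A375 and H1048 and 0.60 in EV AsPC-1.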

How the results depend on the processing

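Calls among the members are given beside the share of all gene tests that passed. They numbered 20 of 75 tests for KLF5 knockout (20.6%), 37 of 82 for RUVBL1 and RUVBL2 (38.7%), 8 of 17 for CHD4 and SERPINB5 (25.3%) and 14 of 94 for CDK1 and RPA3 (9.83%). With CB-6644 they numbered 11 of 18 in EV cells (48.7%), 17 of 36 in cells with A62T or dF109 (33.9%) and 20 of 24 in the other 4 lines (77.2%). Requiring a mean of 5 TPM left 5 calls for CHD4 and SERPINB5 and 7 for EV cells, by construction since fewer genes were tested. Median-of-ratios scaling gave 9 calls for CDK1 and RPA3 and 9 in cells with A62T or dF109. Fitting only the 2 groups compared gave 7 for CDK1 and RPA3, 7 for EV cells and 9 with A62T or dF109, and the DMSO library of the same construct alone gave 6 there, both with fewer libraries. Leaving out 1 library at a time gave 16 to 22 calls for KLF5, 35 to 39 for RUVBL1 and RUVBL2, 6 to 8 for CHD4 and SERPINB5, 10 to 16 for CDK1 and RPA3, 9 to 13 for EV cells, 14 to 23 with A62T or dF109 and 19 to 21 in the other 4 lines, and where it left 1 library in an arm, that library was assumed to vary like the other groups. Of 289 called values, 43 lost the call and 8 changed sign under median-of-ratios scaling, 19 lost it with no filter, and 8 with a pseudocount of 0.1. Of 322 values without a call, 1 gained it with no filter, 0 with the pseudocount of 0.1 and 39 under median-of-ratios scaling. Those 39 included ELF3 in T84 (-0.27) and OVOL2 in EV AsPC-1 cells (-0.44) on CB-6644.

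The changes of sign under that scaling were EHF in T3M-4 with sgRUVBL1 (-0.10), ELF3 in AsPC-1 dF109 cells (-0.04), EHF (-0.06), ELF1 (-0.00) and GRHL1 (-0.03) in T3M-4 A62T cells, GRHL1 in T3M-4 dF109 cells (-0.03), ESRP1 in EV against dF109 T3M-4 cells (0.00) and OVOL2 in T84 against H1048 with DMSO (0.31), and the cause was not tested. Same-numbered libraries did not deviate together (r between -0.46 and 0.35 over 33 comparisons, with none of the 19 that had 3 or more pairs above 0.1 for every pair), so the numbers were not taken as pairing. A replicate block gave 28 calls for KLF5, 36 for RUVBL1 and RUVBL2, 7 for CHD4 and SERPINB5, 14 for CDK1 and RPA3 and 20 in the other 4 lines. The tables hold no counts, so the precision of genes at a few TPM, such as OVOL2, GRHL1 and GRHL3 in AsPC-1, cannot be stated.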
